A study of Mus musculus with 12 samples.

Results

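The Igf2r-Airn cluster is an imprinted region on mouse chromosome 17. In it, 6 genes were followed here by name, whether or not each is itself imprinted: Igf2r, Airn, Slc22a2, Slc22a3, Mas1 and Plg. They are 6 of the 25965 genes in the deposited table, and each was taken as the row that carries its symbol. RNA was measured in 12 libraries of C57BL/6 mouse embryonic stem (ES) cells, labelled male, on their way towards neuromesodermal progenitors, the caudal cells that give rise to both spinal cord and trunk mesoderm. The 6 groups of 2 libraries were Smchd1 del/del and Smchd1 fl/fl cells at day 1, day 5 and day 8, with 1 library each from line 1 and line 3. Every line was derived from a single blastocyst in 2i+LIF medium and then split. The del/del cells were transduced with MSCV-Cre-puro and selected with puromycin, while the fl/fl cells, which carry the unrecombined floxed alleles, were neither transduced nor selected, so deletion, transduction and selection cannot be told apart. All cells went through serum and LIF, then LIF was withdrawn and Fgf2 added, followed by a Gsk3 inhibitor after 2 days and by Gdf11 after another 4 days. The earliest samples, still undifferentiated, carry day 1 in their names, although the protocol counts them as day 0. Because both parental chromosomes are C57BL/6, maternal and paternal transcripts cannot be told apart in these data, and every value below is the sum over both alleles.

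In an imprinted gene, the copy inherited from 1 parent is silenced. Igf2r encodes the cation-independent mannose 6-phosphate receptor, which clears the growth factor Igf2 and carries enzymes to the lysosome. In the embryo it is expressed from the maternal chromosome. Airn is a long noncoding RNA transcribed from the paternal chromosome, antisense to Igf2r, out of a promoter within an Igf2r intron, and its transcription silences the paternal Igf2r copy. In mouse placenta, paternal silencing linked to Airn extends to Slc22a2 and Slc22a3. In ES cells Igf2r is known to be transcribed from both copies while Airn is low, and imprinted expression of Igf2r is set up during differentiation. Smchd1 is a chromatin protein of the inactive X chromosome that also takes part in the silencing of some imprinted clusters.

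By the deposited mm10 coordinates the members lie in a row. Plg spans chr17:12378609-12419384 on the forward strand, Slc22a3 chr17:12419972-12507704 on the reverse strand and Slc22a2 chr17:12584189-12628465 on the forward strand. Igf2r occupies chr17:12682406-12769664 on the reverse strand, Airn chr17:12741311-12860122 on the forward strand and Mas1 chr17:12841079-12868143 on the reverse strand. The spans of Airn and Igf2r share 28354 bases, but by the GENCODE M21 annotation the pair shares 0 exon bases. Of the 2620 exon bases of Mas1, 2290 (87.4%) lie inside the Airn span, where 0 are in an Airn exon. The sources used here do not say whether counting used strand, so unspliced Airn reads and Mas1 reads cannot be told apart over those exons. The annotated exons of Slc22a3 and Plg share 420 bases, which lie beyond the end of the deposited Slc22a3 span.

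**Figure D1:**
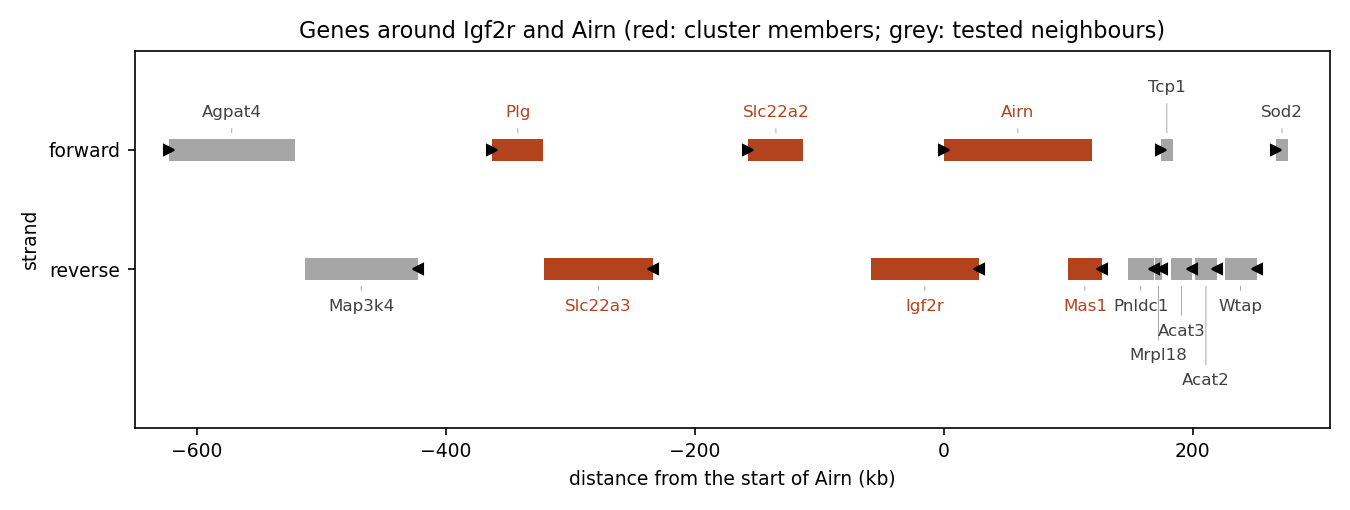
Map of the deposited gene spans around Airn, with distance from the Airn start in kb on the horizontal axis and strand on the vertical axis. Red bars are the 6 cluster members, grey bars the neighbouring genes tested from Agpat4 to Sod2, and each arrowhead sits at a gene's start and points along transcription; Airn runs out of Igf2r into the region of Mas1.

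The promoters of the 4 members with enough reads to test are shown as short windows. Those of Igf2r and Airn, which rose together in these cells, had unlike sequence within their windows. Each run is RefSeq sequence of build GRCm38.p6, 250 bases before and 50 after the annotated start, written 5′ to 3′ on the gene's own strand with CG dinucleotides in capitals.
Igf2r: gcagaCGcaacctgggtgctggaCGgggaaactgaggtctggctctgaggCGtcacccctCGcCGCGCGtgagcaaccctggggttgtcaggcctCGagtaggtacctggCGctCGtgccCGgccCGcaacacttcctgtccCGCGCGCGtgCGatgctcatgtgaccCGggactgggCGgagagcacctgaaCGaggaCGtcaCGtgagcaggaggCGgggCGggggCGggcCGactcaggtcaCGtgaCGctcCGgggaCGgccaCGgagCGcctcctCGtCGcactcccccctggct
Airn: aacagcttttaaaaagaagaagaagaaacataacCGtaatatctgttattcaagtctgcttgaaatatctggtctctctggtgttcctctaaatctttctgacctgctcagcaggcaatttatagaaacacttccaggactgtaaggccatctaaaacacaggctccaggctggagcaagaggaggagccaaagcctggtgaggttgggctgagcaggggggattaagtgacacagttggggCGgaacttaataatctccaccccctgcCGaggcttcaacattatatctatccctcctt
Slc22a3: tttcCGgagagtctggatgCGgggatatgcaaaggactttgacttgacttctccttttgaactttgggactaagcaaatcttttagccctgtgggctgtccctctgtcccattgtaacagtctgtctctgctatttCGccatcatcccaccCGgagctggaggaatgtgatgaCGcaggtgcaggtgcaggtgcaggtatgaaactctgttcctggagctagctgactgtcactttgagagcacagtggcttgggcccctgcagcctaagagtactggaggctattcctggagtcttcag
Mas1: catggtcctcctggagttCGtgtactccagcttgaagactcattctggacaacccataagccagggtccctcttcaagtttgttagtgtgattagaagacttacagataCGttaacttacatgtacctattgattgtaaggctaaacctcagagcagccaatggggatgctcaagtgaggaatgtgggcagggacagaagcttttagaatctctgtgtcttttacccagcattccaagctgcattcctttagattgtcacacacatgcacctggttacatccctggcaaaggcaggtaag
These windows are chr17:12769657-12769956 (reverse strand) for Igf2r, chr17:12741061-12741360 (forward strand) for Airn, chr17:12507655-12507954 (reverse strand) for Slc22a3 and chr17:12868094-12868393 (reverse strand) for Mas1. Igf2r had 34 CG dinucleotides, a number reached by 7.73% of 32851 RefSeq promoters of this length, whose median was 7. Airn had 3 (reached by 76.7%), Slc22a3 5 (62%) and Mas1 2 (85.9%). Sequence more than 50 bases past each start was not counted, so these numbers do not describe CG content farther downstream. Read on both strands, with overlapping matches counted, the GC box letters GGGCGG occurred 3 times in the Igf2r window, as in 10.7% of promoters, once in that of Airn (35.7%) and in neither of the other 2. The E-box letters CAGGTG occurred 3 times in a row in the Slc22a3 window, a number reached by 0.365% of promoters, against 1 time each for Igf2r and Mas1 (20.2%). These matches describe the letters only. The window of Slc22a2 (8 CG) was matched too, so 5 of the 6 members had one.

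Read numbers were recovered from the deposited log2 RPM values (RPM, reads scaled to the same sequencing depth), and levels are given as log2 RPM relative to the median gene of each library. Reads in genes ranged from 3.99 to 8.67 M over 11 libraries and were 1.51 M in the fl/fl day 8 library of line 3, which is called the shallow library below. Smchd1, the targeted gene, was lower in del/del than in fl/fl in all 6 pairs of libraries, by 7.18-fold at day 1, 4.21-fold at day 5 and 5.38-fold at day 8 (adjusted p = 0.00187, 0.043 and 0.00229, limma). Summed over 8 pluripotency markers, the relative RPM was 170 to 201 in del/del and 196 to 219 in fl/fl libraries at day 1, and 47.9 to 57.4 in del/del and 85.1 to 100 in fl/fl libraries at day 8. The 10 neuromesodermal markers summed to 97.1 to 141 in del/del and 85.5 to 117 in fl/fl libraries at day 5, and to 25.7 to 31.2 in del/del and 42.7 to 47.5 in fl/fl libraries at day 8. In bulk RNA, fewer cells of a type and less RNA per cell cannot be told apart. With 2 lines per genotype, the p-values measure the spread between these libraries only.

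Across differentiation, Airn and Igf2r rose in both genotypes, and Airn reads became about 3-fold more frequent per Igf2r read. Slc22a3 rose by day 5, and Mas1, at low read numbers, by day 8. Slc22a2 and Plg stayed at 0 to 3 reads in every library. None of the 4 members tested differed between del/del and fl/fl cells past the threshold on any day or in the mean over days. That was 0 of 16 limma tests, 2 of them at an unadjusted p under 0.05, and voom called 0. The intervals for Slc22a3 and Mas1 were wide. Of all tested genes, 0.00711% were called at day 1, 0.00711% at day 5 and 0.107% for the mean over days, so nearly all genes went uncalled there. At day 8, 7.95% were called higher and 7.05% lower. Changes were called at an adjusted p under 0.05 (limma, Benjamini-Hochberg over 14063 tested genes). Mas1 entered the tested genes through its 2 del/del day 8 libraries alone, Slc22a3 through 4 libraries, and Igf2r and Airn through all 12.

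**Figure D2:**
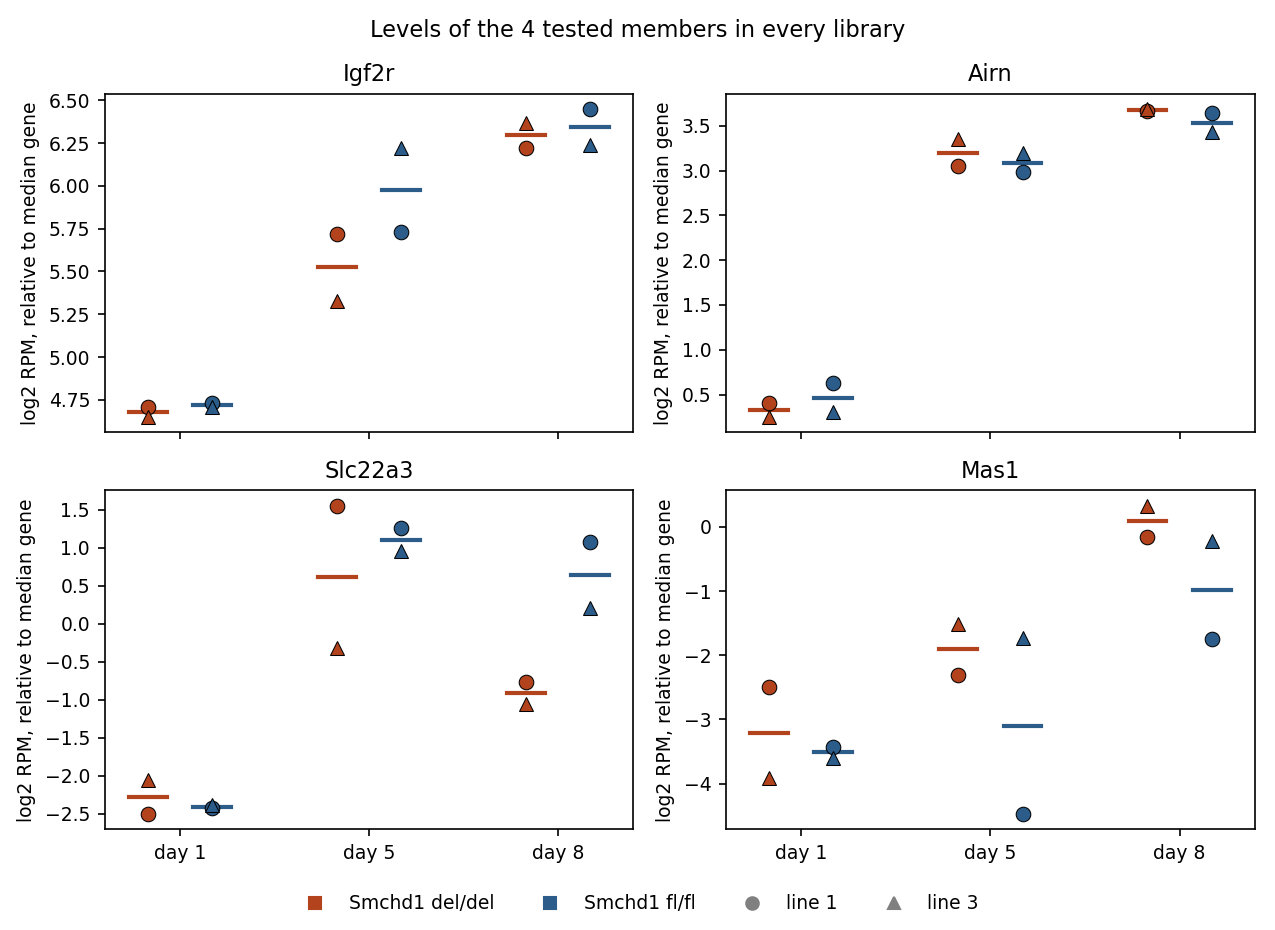
Level of Igf2r, Airn, Slc22a3 and Mas1 in each of the 12 libraries, as log2 RPM relative to the median gene, at day 1, day 5 and day 8. Red is del/del, blue fl/fl, circles line 1, triangles line 3 and bars the mean of 2 libraries; the vertical scale differs between panels, and the day 8 levels of Airn lie between 3.43 and 3.69 against 0.25 to 0.63 at day 1.

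Airn, the noncoding RNA that silences paternal Igf2r, was low in undifferentiated cells. The day 1 libraries held 52 and 54 Airn reads in del/del and 50 and 45 in fl/fl libraries (line 1, then line 3, here and below). Day 5 gave 204 and 205 reads in del/del and 175 and 367 in fl/fl libraries. At day 8 there were 543 and 511 in del/del and 374 and 75 in fl/fl libraries, the 75 coming from the shallow library.

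Relative to the median gene, Airn stood at 0.40 and 0.25 in del/del and 0.63 and 0.30 in fl/fl cells at day 1. It reached 3.05 and 3.35 in del/del and 2.98 and 3.20 in fl/fl cells at day 5, and 3.67 and 3.69 in del/del and 3.64 and 3.43 in fl/fl cells at day 8 (log2 RPM). Every day 5 and day 8 library lay above every day 1 library, and within day 1 and within day 5 the genotypes overlapped. The group means were 0.32 ± 0.11 in del/del and 0.46 ± 0.23 in fl/fl cells at day 1, 3.20 ± 0.22 in del/del and 3.09 ± 0.16 in fl/fl cells at day 5, and 3.68 ± 0.01 in del/del and 3.53 ± 0.15 in fl/fl cells at day 8 (SD, n = 2 each). The levels thus ordered by day; day 8 libraries lay above all day 5 libraries, and at day 8 the del/del libraries lay just above the fl/fl libraries.

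Between day 1 and day 5, Airn rose 7.36-fold in del/del cells (log2 2.88 ± 0.22 SE, adjusted p = 7.18e-06, limma) and 6.18-fold in fl/fl cells (2.63 ± 0.22, adjusted p = 1.22e-05). Over the same step 21.2% of tested genes were called higher in del/del and 23% in fl/fl cells. Between day 5 and day 8 the difference was 0.48 in del/del (adjusted p = 0.188) and 0.44 in fl/fl cells (adjusted p = 0.242), neither past the threshold. From day 1 to day 8 the rise was 10.2-fold in del/del (3.36 ± 0.22, adjusted p = 1.24e-06) and 8.39-fold in fl/fl cells (3.07 ± 0.22, adjusted p = 2.42e-06, limma). The background for that span was 26.9% of genes called higher in del/del and 28.5% in fl/fl cells, and 5.69% and 5.96% of genes had a difference as large as that of Airn in del/del and in fl/fl cells.

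Igf2r, the receptor, was the most abundant member throughout. Its reads were 1036 and 1142 in del/del and 860 and 952 in fl/fl libraries at day 1, and 1296 and 808 in del/del and 1178 and 2980 in fl/fl libraries at day 5. At day 8 there were 3183 and 3283 in del/del and 2625 and 525 in fl/fl libraries. As relative log2 RPM, Igf2r was at 4.71 and 4.65 in del/del and 4.73 and 4.71 in fl/fl cells at day 1. The day 5 levels were 5.72 and 5.33 in del/del and 5.73 and 6.22 in fl/fl cells, and the day 8 levels 6.22 and 6.37 in del/del and 6.45 and 6.24 in fl/fl cells.

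All day 1 libraries lay below all others. In order of level the group means were 4.68 ± 0.05 (del/del day 1), 4.72 ± 0.02 (fl/fl day 1), 5.53 ± 0.27 (del/del day 5), 5.98 ± 0.35 (fl/fl day 5), 6.30 ± 0.10 (del/del day 8) and 6.34 ± 0.15 (fl/fl day 8; SD, n = 2 each). The genotypes overlapped at day 8 and met at 4.71 at day 1, and at day 5 the higher del/del library lay just under the lower fl/fl library. The fl/fl day 5 and del/del day 8 groups met at 6.22.

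Igf2r rose 1.8-fold by day 5 in del/del (0.84 ± 0.18, adjusted p = 0.00343, limma) and 2.39-fold in fl/fl cells (1.26 ± 0.18, adjusted p = 0.000308). A further rise to day 8 was called in del/del cells at 0.77 (adjusted p = 0.0195) and not in fl/fl cells at 0.36 (adjusted p = 0.227), where 7.24% of genes were called higher in del/del and 3.15% in fl/fl cells. The del/del call was lost without the day 5 library of line 3 (adjusted p = 0.0754), or without the day 8 library of line 1 (0.0667) or line 3 (0.151). From day 1 to day 8 Igf2r rose 3.06-fold in del/del (1.62 ± 0.18, adjusted p = 3.03e-05) and 3.08-fold in fl/fl cells (1.62 ± 0.18, adjusted p = 3.1e-05, limma). Without the shift to the median gene, that is on the deposited scale, the day 5 difference of Igf2r was -0.06 in del/del and 0.88 in fl/fl cells (adjusted p = 0.905 and 0.128), and the day 8 difference in fl/fl cells 0.70 (adjusted p = 0.147).

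Airn thus gained on its antisense partner in read numbers. There were 5.02 and 4.73 Airn reads per 100 Igf2r reads in del/del and 5.81 and 4.73 in fl/fl libraries at day 1. At day 5 the ratio was 15.7 and 25.4 in del/del and 14.9 and 12.3 in fl/fl libraries, and at day 8 it was 17.1 and 15.6 in del/del and 14.2 and 14.3 in fl/fl libraries. This ratio is free of the choice of scale, since both genes come from the same library. The 25.4 of the del/del day 5 library of line 3 (95% Wilson interval 21.8 to 29.6, counting error only) stood above the intervals of all other libraries.

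On the log2 scale the ratio was 1.70 higher at day 5 than at day 1 (3.25-fold, 4 libraries against 4, exact two-sided permutation p = 0.0286, adjusted over 4 tests 0.0571) and 1.59 higher at day 8 than at day 1 (3.01-fold, the same p values). Both p values are the smallest that 70 arrangements can give, and the adjusted values missed 0.05. Day 8 and day 5 differed by -0.11 (exact permutation p = 0.771). Del/del minus fl/fl within days was 0.22, with an exact permutation p of 0.194 over 216 arrangements (adjusted 0.259). These arrangements took libraries as independent units, although the 4 of a day come from 2 lines, each in both genotypes. The tests were chosen after the values were seen.

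**Figure D3:**
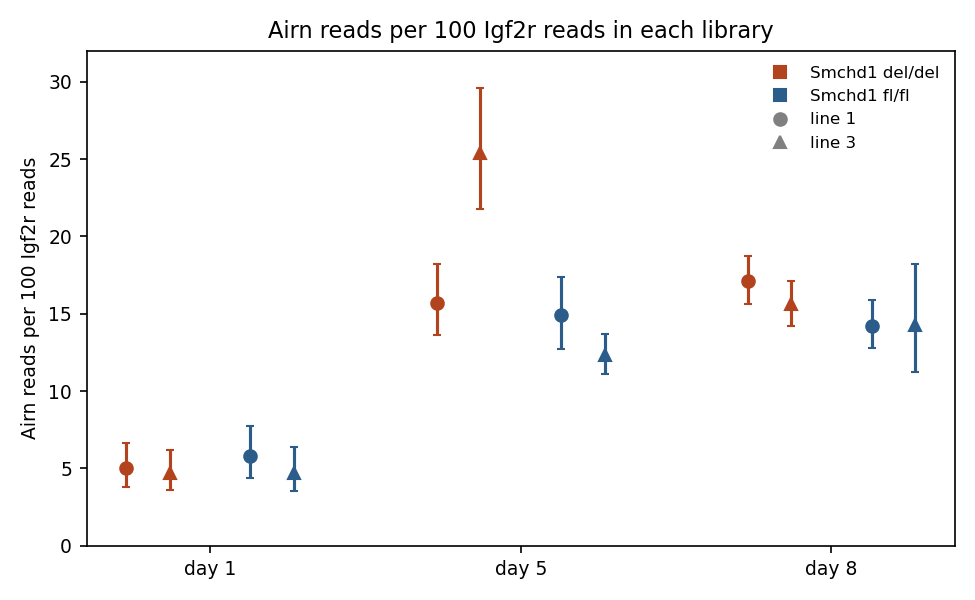
Airn reads per 100 Igf2r reads in each library at day 1, day 5 and day 8, with 95% Wilson intervals that cover counting error only. Red is del/del, blue fl/fl, circles line 1 and triangles line 3; day 1 libraries lie between 4.73 and 5.81, later ones between 12.3 and 25.4.

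Per kb of annotated exon, Igf2r was the highest member at day 8, with 8.46 ± 0.605 relative RPM per kb in del/del and 8.74 ± 0.912 in fl/fl cells, followed by Airn at 3.56 ± 0.024 in del/del and 3.23 ± 0.33 in fl/fl cells (SD, n = 2 each). Mas1 averaged 0.411 in del/del and 0.221 in fl/fl cells on the same scale, and Slc22a3 0.118 in del/del and 0.359 in fl/fl cells. Airn is known to be largely unspliced, and its level relative to that of Igf2r depends on the length used. Its level per kb at day 8 was 0.422 of that of Igf2r in del/del and 0.369 in fl/fl cells by exon length, but 0.12 in del/del and 0.105 in fl/fl cells by the full span.

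Slc22a3, a transporter of organic cations and monoamines, had few reads at day 1, with 7 and 11 in del/del and 6 and 7 in fl/fl libraries. At day 5 the numbers were 72 and 16 in del/del and 53 and 77 in fl/fl libraries, and at day 8 they were 25 and 19 in del/del and 63 and 8 in fl/fl libraries. The corresponding levels were -2.50 and -2.05 in del/del and -2.43 and -2.38 in fl/fl cells at day 1, and 1.55 and -0.32 in del/del and 1.26 and 0.95 in fl/fl cells at day 5. At day 8 the levels were -0.77 and -1.06 in del/del and 1.07 and 0.20 in fl/fl cells (relative log2 RPM). All later libraries lay above all day 1 libraries, and at day 8 both del/del libraries lay below both fl/fl libraries.

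The group means of Slc22a3 were -2.27 ± 0.32 in del/del and -2.41 ± 0.04 in fl/fl cells at day 1, 0.61 ± 1.32 in del/del and 1.10 ± 0.22 in fl/fl cells at day 5, and -0.92 ± 0.21 in del/del and 0.63 ± 0.61 in fl/fl cells at day 8 (SD, n = 2 each). In order of level, the overlapping day 1 groups came lowest and del/del day 8 next, and the other 3 groups overlapped each other. Slc22a3 rose 7.38-fold by day 5 in del/del (2.88 ± 0.62, adjusted p = 0.00377, limma) and 11.4-fold in fl/fl cells (3.51 ± 0.62, adjusted p = 0.00118). At day 8 it was 8.23-fold above day 1 in fl/fl cells (3.04 ± 0.62, adjusted p = 0.00172), against 1.36 ± 0.62 in del/del cells (adjusted p = 0.0888), which missed the threshold. The step from day 5 to day 8 was -1.53 in del/del (adjusted p = 0.132) and -0.47 in fl/fl cells (adjusted p = 0.674). The genotypes' changes between day 1 and day 8 differed by -1.68 (95% interval -3.60 to 0.23, adjusted p = 0.344).

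Mas1, a G protein-coupled receptor for an angiotensin peptide, had 7 and 3 reads in del/del and 3 and 3 in fl/fl libraries at day 1, and 5 and 7 in del/del and 1 and 12 in fl/fl libraries at day 5. Day 8 gave 38 and 50 reads in del/del and 9 and 6 in fl/fl libraries. Its relative levels were -2.50 and -3.92 in del/del and -3.43 and -3.60 in fl/fl cells at day 1, and -2.30 and -1.52 in del/del and -4.47 and -1.73 in fl/fl cells at day 5. At day 8 they were -0.16 and 0.33 in del/del and -1.74 and -0.22 in fl/fl cells. The 2 del/del libraries of day 8 were the highest of the 12, just above the fl/fl day 8 library of line 3.

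The group means of Mas1 were -3.21 ± 1.01 in del/del and -3.52 ± 0.12 in fl/fl cells at day 1, -1.91 ± 0.55 in del/del and -3.10 ± 1.93 in fl/fl cells at day 5, and 0.08 ± 0.35 in del/del and -0.98 ± 1.08 in fl/fl cells at day 8 (SD, n = 2 each). In order of level each group overlapped its neighbour except del/del day 8, the highest. Mas1 rose 9.81-fold between day 1 and day 8 in del/del cells (3.29 ± 0.95, adjusted p = 0.0138, limma) and 5.82-fold in fl/fl cells (2.54 ± 0.95, adjusted p = 0.0416). Since Mas1 passed the filter only through the 2 del/del day 8 libraries, the del/del test was not independent of that selection. The fl/fl call was lost with no filter (adjusted p = 0.0523), with voom (0.079), on the deposited scale (0.183) and without any 1 of 5 libraries, both fl/fl day 1, both del/del day 8 and the shallow one (0.0565 to 0.213). The del/del call was lost without the day 1 library (adjusted p = 0.11) or the day 8 library of line 3 (0.0777).

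Since Mas1 exons lie in the Airn span, its reads were also set against those of Airn. There were 13.5 and 5.56 Mas1 reads per 100 Airn reads in del/del and 6 and 6.67 in fl/fl libraries at day 1. The ratio was 2.45 and 3.41 in del/del and 0.571 and 3.27 in fl/fl libraries at day 5, and 7 and 9.78 in del/del and 2.41 and 8 in fl/fl libraries at day 8. It was lower in every day 5 library than in every day 1 library, while the day 8 values overlapped those of both other days; whether Mas1 reads come from Airn RNA was not tested.

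Slc22a2, a renal organic cation transporter, had 10 reads over the 12 libraries, 4 in del/del and 6 in fl/fl, and no library had more than 3. At day 1 it had 0 reads in all 4 libraries, which allows up to 0.0659 to 0.0759 relative RPM in the del/del and 0.0822 to 0.0926 in the fl/fl libraries (3 reads, counting error only). Plg, the precursor of plasmin that is made mainly in the liver, had 7 reads, 2 in del/del and 5 in fl/fl, and was at 0 in 9 libraries. Both fell under the filter and were not tested, and at this depth no difference in them was detectable.

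Between the genotypes, Airn differed by -0.14 at day 1, 0.11 at day 5 and 0.15 at day 8 (del/del minus fl/fl, log2). The 95% intervals were -0.63 to 0.35, -0.38 to 0.60 and -0.34 to 0.64, and the adjusted p values 1, 0.863 and 0.661 (limma). Averaged over days the difference was 0.04 (-0.24 to 0.32), with del/del higher in 4 of 6 pairs of libraries. As deposited, without the shift, Airn was 0.02, -0.26 and 1.03 apart at day 1, day 5 and day 8 (adjusted p = 1, 0.844 and 0.115), and the median gene itself 0.15, -0.40 and 0.90. The shares of all tested genes called between the genotypes were 0.00711% at day 1, 0.00711% at day 5 and 0.107% for the mean over days. At day 8, 7.95% were called higher and 7.05% lower in del/del cells.

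Igf2r was -0.04 apart at day 1 (95% interval -0.43 to 0.35), -0.45 at day 5 (-0.84 to -0.06) and -0.05 at day 8 (-0.44 to 0.34), with adjusted p values of 1, 0.597 and 0.876 (limma). The day 5 value had an unadjusted p of 0.0272. It came from line 3, where del/del was 0.89 lower in log2 RPM than fl/fl, whereas line 1 differed by -0.01. The mean over days was -0.18 (adjusted p = 0.302), and del/del was higher in 1 of 6 pairs. Without the shift (deposited scale) its direction turned at day 1 (0.12) and day 8 (0.84, adjusted p = 0.11), and the day 5 value was -0.83 (adjusted p = 0.752).

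Slc22a3 had the lowest genotype difference of the members at day 8, -1.55 ± 0.62, or 2.93-fold lower in del/del cells. It had 44 reads in del/del and 71 in fl/fl cells. Pooled and scaled to the median gene, that was 3.59-fold lower in del/del cells. Its counting interval of 2.43 to 5.35 leaves out the spread between libraries. The 95% interval of the difference was -2.91 to -0.19, the unadjusted p 0.0289 and the adjusted p 0.104 (limma), so it did not pass. The difference was -0.67 on the deposited scale (adjusted p = 0.478). Line 1 differed by -1.84 and line 3 by -1.26. Leaving out the del/del day 5 library of line 1 or of line 3 gave the same -1.55 with an adjusted p of 0.044 or 0.0399, and without that of line 1 the mean over days was -0.95 (adjusted p = 0.0498). At day 1 and day 5 the differences were 0.14 and -0.49 (adjusted p = 1 and 0.771), and the mean over days was -0.64 (adjusted p = 0.289).

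Mas1 was 0.31, 1.19 and 1.06 higher in del/del cells at day 1, day 5 and day 8 in the fit, with adjusted p values of 1, 0.667 and 0.443 (limma), and higher in 5 of 6 pairs. At day 8 there were 88 reads in del/del and 15 in fl/fl cells. Pooled and scaled to the median gene, that was 2.64-fold higher in del/del cells. Its counting interval of 1.52 to 4.91 leaves out the spread between libraries. The 95% limma interval of the day 8 log2 difference, which includes that spread, was -1.04 to 3.17. The day 8 difference was 1.94 on the deposited scale (adjusted p = 0.136). The mean over days was 0.85 (95% interval -0.36 to 2.07, adjusted p = 0.353). Mas1 passed the filter only through the 2 del/del day 8 libraries. Its genotype tests that use day 8 were thus not independent of that selection. No member's genotype difference changed between days past the threshold, the lowest adjusted p being 0.344. The background of these tests was 0% of genes called between day 5 and day 1 (358 at an unadjusted p under 0.05; voom called 0 too), 0.0213% between day 8 and day 1 and 0.00711% between day 8 and day 5.

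**Figure D4:**
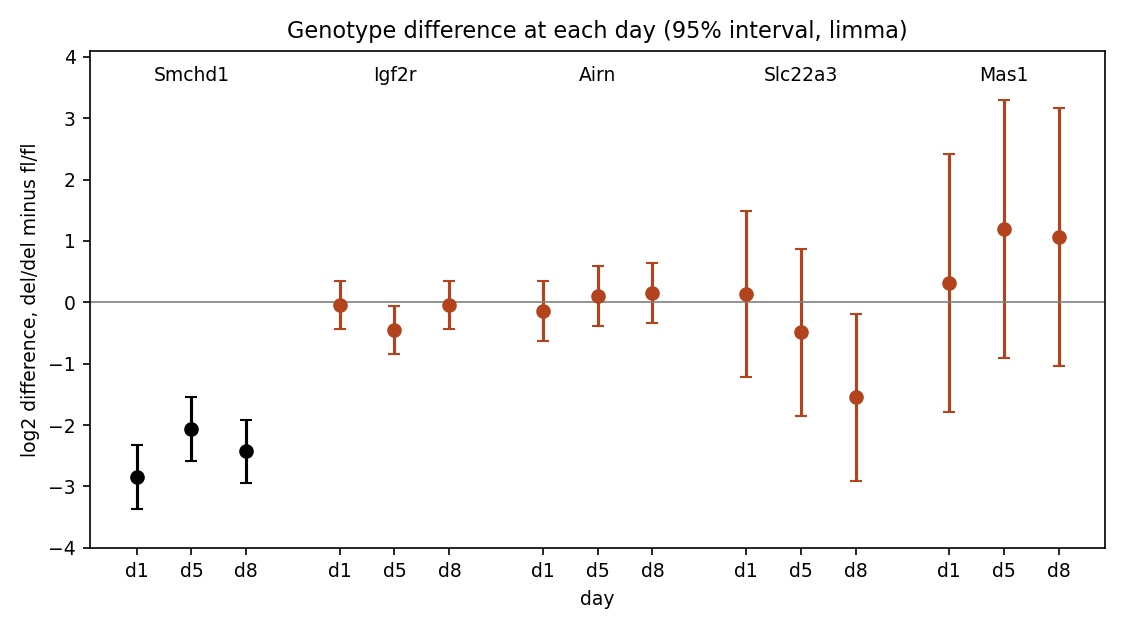
Log2 difference between del/del and fl/fl cells at day 1, day 5 and day 8 for Smchd1 (black) and the 4 tested members (red), with 95% limma intervals. Smchd1 lies between -2.84 and -2.07, while the intervals of Igf2r at day 5 (-0.84 to -0.06) and Slc22a3 at day 8 (-2.91 to -0.19) are those of members that leave out 0 before adjustment.

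Markers of other cell types moved with the day 8 comparison. The 14 trophoblast markers, all in the table, summed to 90.7 to 124 relative RPM in del/del and 225 to 523 in fl/fl libraries at day 8, with reads for 13 of the 14 in del/del cells, where Elf5 was at 0, and for all 14 in fl/fl cells. The 17 extraembryonic endoderm markers summed to 527 to 821 in del/del and 1330 to 1700 in fl/fl libraries, with Apoa1 and Ttr at 0 in both del/del libraries. The 8 mesoderm and fibroblast markers went the other way, with 471 to 608 in del/del and 82.8 to 266 in fl/fl libraries, and Meox1 was at 0 in both fl/fl libraries. The 7 neural markers summed to 44.4 to 99.6 in del/del and 150 to 316 in fl/fl libraries, with Sox1 at 0 in both fl/fl libraries. Of the 10 plasma protein genes of liver and visceral endoderm, Fgg, Fga, Fgb and Serpina1a were at 0 in all day 8 libraries and the list summed to 4.18 to 4.55 in del/del and 3.73 to 8.85 in fl/fl libraries. The part of these cell types in the Slc22a3 and Mas1 values was not tested.

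Among the region's neighbours, which are not held to be imprinted in the embryo, 14 were named and 10 tested, and more were lower than higher at day 8. Between day 1 and day 8, 2 were higher and 4 lower in del/del cells, and 2 were higher and 5 lower in fl/fl cells. The medians were -0.43 and -0.44, against -0.00 and -0.02 over all tested genes. In del/del cells these were 20% higher and 40% lower, against 26.9% and 23.8% of all tested genes. In fl/fl cells they were 20% higher and 50% lower, against 28.5% and 26.8%. On the deposited scale the counts were 0 higher and 1 lower in del/del and 0 higher and 8 lower in fl/fl cells. Agpat4, a lipid acyltransferase gene, rose by 0.93 in del/del and 1.40 in fl/fl cells. Qk, an RNA-binding protein gene, rose by 0.47 in del/del and 0.63 in fl/fl cells.

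On the other side of the cluster, Pnldc1, a trimmer of piRNAs, fell by 3.12 in del/del and 2.80 in fl/fl cells on the log2 scale. The mitochondrial superoxide dismutase gene Sod2 fell by 0.92 in del/del and 1.46 in fl/fl cells. Mrpl18, a mitochondrial ribosome gene, fell by 0.64 in del/del and 1.00 in fl/fl cells, and Wtap, of the RNA methylation complex, by 0.50 in del/del and 0.57 in fl/fl cells. Acat2 fell by 0.51 in fl/fl cells, and was at -0.01 in del/del cells; Map3k4, Tcp1 and Acat3 did not pass in either genotype. Between the genotypes at day 8, 0 of the 10 were called (limma; 2 had an unadjusted p under 0.05, and voom called 1 lower). Over all tested genes 7.95% were called higher and 7.05% lower there, so 0 among 10 genes says little. Mrgprh, with 5 reads over all libraries, was not tested.

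**Figure D5:**
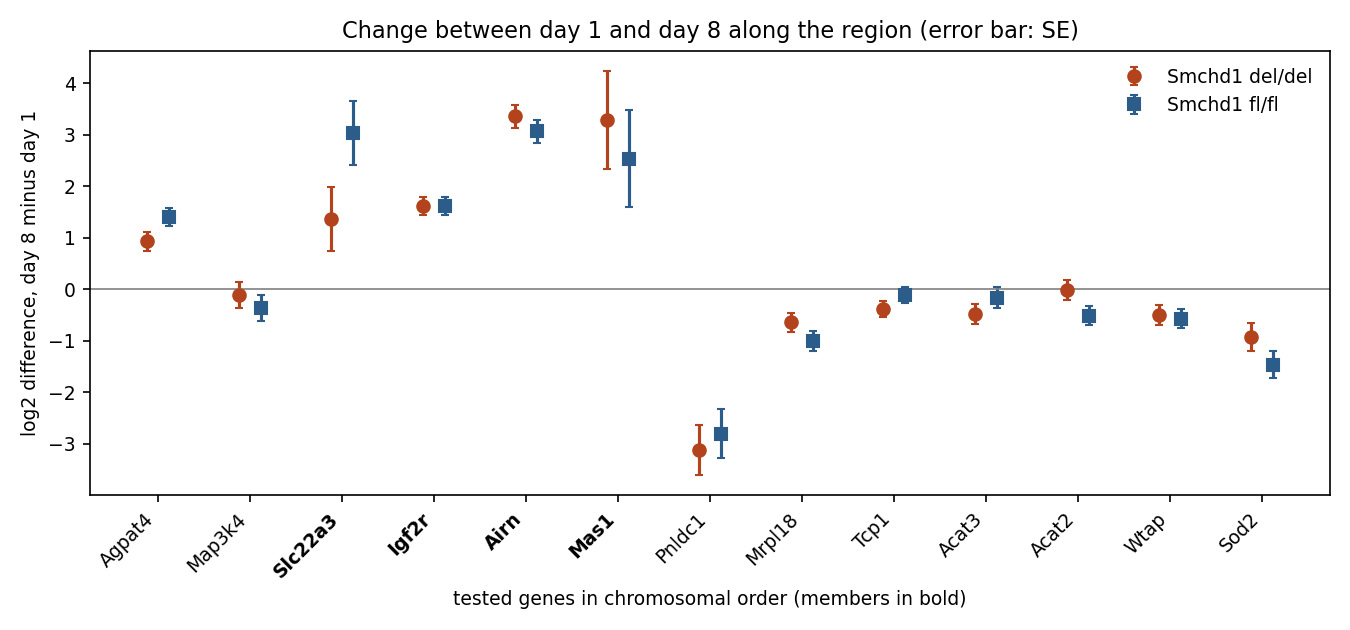
Log2 difference between day 8 and day 1 (relative to the median gene) for tested genes from Agpat4 to Sod2 in chromosomal order, del/del red and fl/fl blue, with SE bars. The 4 members, in bold, lie between 1.36 and 3.36, and the neighbours between -3.12 and 1.40.

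The ligand and the other receptors of the insulin-like growth factor (IGF) system moved with Igf2r. Of 10 tested genes, 7 were higher and 1 lower at day 8 than at day 1 in del/del, and 8 were higher and 1 lower in fl/fl cells, with medians of 1.79 and 1.70. That is 70% higher in del/del and 80% in fl/fl cells, against 26.9% and 28.5% of all tested genes. On the deposited scale 6 were higher in del/del and 4 in fl/fl cells, with medians of 1.58 and 0.77. Igf2, the imprinted growth factor that Igf2r clears, rose by 3.20 ± 0.26 in del/del (adjusted p = 4.26e-06, limma) and by 3.46 ± 0.26 in fl/fl cells (adjusted p = 3.09e-06). Irs1, an adaptor of insulin signalling, rose by 5.84 in del/del and 4.90 in fl/fl cells, and Igf1r, the signalling receptor, by 2.02 in del/del and 1.52 in fl/fl cells. Igf2bp1, an RNA-binding protein gene, fell by 1.05 in del/del and 0.94 in fl/fl cells. H19, the maternally expressed neighbour of Igf2, rose by 2.40 in fl/fl cells, and its value was 1.08 in del/del cells (adjusted p = 0.093). Between the genotypes at day 8, 0 of the 10 were called (limma; 3 had an unadjusted p under 0.05, and voom called 0), while 2 were called higher in del/del cells on the deposited scale. The shares over all tested genes were 7.95% higher and 7.05% lower, so 0 among 10 genes says little. Igf2 was -0.50 apart (adjusted p = 0.194).

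Genes for the cargo of Igf2r, the lysosomal enzymes that carry mannose 6-phosphate, rose with it. Of 26 tested, 22 were higher at day 8 than at day 1 in del/del and 26 in fl/fl cells, with 0 lower (median 1.23 in del/del, 1.78 in fl/fl). These are 84.6% in del/del and 100% in fl/fl cells, against 26.9% and 28.5% of all tested genes. On the deposited scale the medians were 1.02 and 0.85, with 12 called in del/del and 13 in fl/fl cells. Naglu, which breaks down heparan sulfate, rose by 3.65 in del/del and 3.55 in fl/fl cells, and Lipa, the lysosomal lipase, by 3.54 in del/del and 3.34 in fl/fl cells. At day 8, 8 of the 26 were lower in del/del than in fl/fl cells and 0 higher, that is 30.8% lower against 7.05% of all tested genes (median -0.52 against 0.02). Among them were the cathepsins Ctsl (-1.37, adjusted p = 0.0255) and Ctsd (-1.26, adjusted p = 0.0255) and the peptidase Tpp1 (-0.93, adjusted p = 0.0206, limma). That count was 0 when the shallow library was left out, 0 when line 3 was left out of the del/del day 8 group, 1 when line 1 was, and 0 on the deposited scale, where the median was 0.36. Of the day 8 marker sums given above, those of extraembryonic endoderm, trophoblast, neural, pluripotency and neuromesodermal genes were also lower in del/del libraries. The mesoderm and fibroblast sum was higher, and the part of these cell types in the lysosomal values was not tested.

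Genes of the machinery that tags and sorts this cargo were called in both directions, in del/del cells at lower shares than all tested genes. Of 16 tested genes, 3 rose and 3 fell between day 1 and day 8 in del/del, and 6 rose and 2 fell in fl/fl cells (medians -0.01 and 0.31; -0.22 and -0.62 on the deposited scale, with 0 higher in either genotype). In del/del cells 18.8% were called in each direction, against 26.9% higher and 23.8% lower over all tested genes, and in fl/fl cells 37.5% were higher and 12.5% lower, against 28.5% and 26.8%. Ap1s1, an adaptor subunit of the trans-Golgi, rose by 0.69 in del/del and 1.07 in fl/fl cells. Gga2, another adaptor, fell by 0.58 in del/del and 0.44 in fl/fl cells. M6pr, the cation-dependent mannose 6-phosphate receptor and so the functional relative of Igf2r, rose by 0.68 in fl/fl cells and was 0.76 lower in del/del than in fl/fl cells at day 8 (log2 -0.76 ± 0.18, adjusted p = 0.0255, limma). At day 8, 3 genes were lower and 1 higher in del/del cells (18.8% and 6.25%, against 7.05% and 7.95% of all tested genes), and the median was -0.27. Both counts were 0 without the shallow library, and on the deposited scale 0 were lower and the median was 0.61.

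The partners of the remaining members were sparse, rose, or had values in both directions. Of 7 named organic cation transporters and kin of Slc22a2 and Slc22a3, 2 were tested and 0 were called between day 1 and day 8 in either genotype or between the genotypes at day 8 (limma; 0 at an unadjusted p under 0.05, and 0 with voom). With no filter, 1 was higher and 1 lower between day 1 and day 8 in del/del cells. Over that span 26.9% of all tested genes were called higher and 23.8% lower in del/del cells, and 28.5% and 26.8% in fl/fl cells. Between the genotypes at day 8 the shares were 7.95% and 7.05%, so 0 calls among 2 genes say little. In the plasminogen system, 6 of 7 tested genes rose between day 1 and day 8 in each genotype (85.7%, against 26.9% of all tested genes in del/del and 28.5% in fl/fl cells), and 4 in del/del and 5 in fl/fl cells did on the deposited scale. Plau, a plasminogen activator, rose by 4.51 in del/del and 5.57 in fl/fl cells, while Plg itself stayed at 0 to 3 reads. At day 8, 3 of the 7 were lower in del/del cells (42.9%, against 7.05% of all tested genes). Among them were Plaur, the receptor of that activator (-1.56, adjusted p = 0.0218), and Anxa2 (-0.89, adjusted p = 0.0449, limma). These 3 calls became 0 without the shallow library or without line 3 in the del/del day 8 group, 0 on the deposited scale and 1 with the line as a replicate block. Of 4 tested genes of the angiotensin axis around Mas1, 25% were called higher at day 8 than at day 1 in del/del and 50% in fl/fl cells. The medians were -0.39 and 1.31. Mme (-1.21 in del/del, -1.48 in fl/fl) and Ace (-1.37 and 1.80) were not called. Atp6ap2, the prorenin receptor, rose by 0.67 in del/del and 1.44 in fl/fl cells, and Lnpep, an angiotensin-binding peptidase, rose by 1.18 in fl/fl cells. Those 2 genes were also called between the genotypes (50% of the 4 lower, against 7.05% of all tested genes). Both were lower in del/del cells at day 8, by log2 -0.85 for Atp6ap2 and -0.84 for Lnpep (adjusted p = 0.0132 and 0.0311), and neither was called without the shallow library or on the deposited scale.

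Genes that keep or erase imprints fell as Airn rose. Of 14 tested, 12 fell between day 1 and day 8 in del/del and 13 in fl/fl cells, with 0 higher. The shares were 85.7% in del/del and 92.9% in fl/fl cells, against 23.8% and 26.8% of all tested genes. The methyltransferase gene Dnmt3b fell by 4.30 in del/del and 4.04 in fl/fl cells, and Tet1, which oxidises methylated cytosine, by 4.04 in del/del and 3.77 in fl/fl cells. Zfp57, which guards methylated imprints, fell by 1.13 in del/del and 1.49 in fl/fl cells. At day 8, Dppa3 (1.69, adjusted p = 0.0251) and Dnmt3a (0.50, adjusted p = 0.0213) were higher and Dnmt3l (-1.35, adjusted p = 0.00963, limma) lower in del/del than in fl/fl cells. These are 14.3% higher and 7.14% lower, against 7.95% and 7.05% of all tested genes. The 2 higher calls became 0 without either del/del day 8 library, 1 without the shallow library and 6 on the deposited scale.

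Among 11 tested genes of complexes linked to silencing by Airn, 1 rose and 3 fell over the same span in del/del, and 2 rose and 5 fell in fl/fl cells. In del/del cells 9.09% were higher and 27.3% lower, against 26.9% and 23.8% of all tested genes, and in fl/fl cells 18.2% were higher and 45.5% lower, against 28.5% and 26.8%. Pcgf3, a Polycomb subunit, rose by 0.87 in del/del and 0.97 in fl/fl cells, and Suz12, of Polycomb repressive complex 2, fell by 0.99 in del/del and 1.10 in fl/fl cells. The histone methyltransferase gene Ezh2 fell by 0.66 in del/del and 1.52 in fl/fl cells, and at day 8 was 0.83 higher in del/del cells (adjusted p = 0.0168). Pcgf5 was 0.88 lower there (log2 -0.88, adjusted p = 0.0186, limma), the third called gene being Smchd1. The shares called at day 8 were 9.09% higher and 18.2% lower, against 7.95% and 7.05% of all tested genes. That lower share includes Smchd1, the targeted gene, whose lower level was fixed by the design, so Pcgf5 was the only other gene in it. Smchd1 is also 1 of the 11 genes in the counts that follow. With the shallow library left out 0 were higher and 1 lower, and on the deposited scale 3 were higher and 1 lower.

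Over the 12 libraries, the levels of Igf2r and Airn had a Pearson correlation of 0.933 (relative log2 RPM), which placed Airn at rank 568 of 11280 candidate genes for Igf2r, and Igf2r at rank 861 for Airn. The libraries share days and lines, so these are descriptions. The genes most like Igf2r were Rcor1 (0.989), Hs3st1 (0.988), Ifngr1 (0.985), Creb3l2 (0.984) and Senp5 (0.982), and the least like it were Snurf (-0.986), Ccne1 (-0.983) and Etaa1 (-0.982). Airn was closest to Naglu (0.994) and to Tnfsf9, Aif1l, Slc12a7 and Hoxb4 (0.993 each), and farthest from Nol10 (-0.996), Tet1 (-0.995) and Jarid2 (-0.992). Igf2 stood at 0.976 with Airn and 0.893 with Igf2r. By Spearman correlation 0 of the 5 nearest genes were kept for either, and on the deposited scale 0 for Igf2r and 1 for Airn.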

How the data were processed

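RNA was measured by Illumina sequencing of total RNA in 12 libraries, in 6 groups of 2. The authors deposited log2 RPM values for 25965 genes in 12 columns, per the labels, and no column was left unused. The tools were TopHat2 2.0.12, bcl2fastq and edgeR on build mm10, per the submitters' processing notes; the counting, its use of strand and the treatment of duplicates are not given in the sources used here. Taken out of the log2, 100% of values were whole reads within 0.02 reads, with 0 reads entered as 0.9 reads, which gave read numbers and the denominators (14.9 to 34 M reads, of which 10.1 to 27.8% lay in genes).

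Each library was shifted by the median of its log ratios, since on the deposited scale the median gene differed by 0.90 between del/del and fl/fl cells at day 8 and by -0.95 between day 8 and day 1 in fl/fl cells (log2). The 14063 genes that exceeded a deposited log2 RPM of 0 in 2 or more libraries were tested with limma 3.58.1 in R 4.3.3, with 6 group means, a mean-variance trend and Benjamini-Hochberg adjustment over all tested genes at 0.05. The script was tested on simulated reads. Fold changes are on the log2 RPM scale. Exact permutation tests and Wilson and exact counting intervals used scipy 1.17.1. Exon lengths and overlaps came from GENCODE M21.

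Replicate 1 is line 1 and replicate 2 is line 3 in both genotypes, so the numbers pair libraries by cell line, per the labels' protocols. The deviations of same-numbered libraries from their group means correlated at 0.135 at day 1, -0.154 at day 5 and -0.111 at day 8.

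The members, the 9 gene lists and the marker lists were chosen with earlier results of these data known, and so was the shift. Named genes were the members, Smchd1, region neighbours, up to 4 called genes with the smallest p per list and comparison, and the 5 most and 3 least like genes; Zfp57, H19 and Igf1r, M6pr in fl/fl cells and the genes named in counts of 5 or fewer were singled out after their values were seen. Some genes of the lists are not reported here by name. Alternatives were other scales, filters, 2 reads added, voom, the line as a block and leaving out each library.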

Additional observations from a re-analysis of the deposited data

How the results depend on the processing

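Of 40 member results, 30 stayed on their side of the threshold under all alternatives; of 740 alternative values 15 lost a call with the direction kept, 6 gained one and 1 turned a called rise, that of Igf2r in del/del cells, day 5 minus day 1, to -0.06 on the deposited scale. Direction was less stable: 20 alternative values in 14 results had the opposite sign, 8 of them on the deposited scale and 11 with a library left out, and 13 of these results were not called to begin with. On that scale the day 5 minus day 1 value of Igf2r in fl/fl cells was 0.88, its day 8 minus day 1 value 0.70 and that of Mas1 1.61, none called. The fl/fl rise of Mas1 was 2.54 with no filter and 2.06 with voom, neither called. Leaving out 1 library at a time changed calls in 7 results. Igf2r in del/del cells, day 8 minus day 5, ranged from 0.58 to 0.96. Mas1, day 8 minus day 1, ranged from 2.58 to 4.01 in del/del and 1.78 to 3.30 in fl/fl cells. Slc22a3 in del/del cells ranged from 1.13 to 1.58 (day 8 minus day 1) and -2.46 to -0.59 (day 8 minus day 5), and between genotypes from -1.98 to -1.12 at day 8 and -0.95 to -0.32 over days; on the deposited scale the day 8 difference was -0.67. With the line as a replicate block the Slc22a3 difference at day 8 was still -1.55, and no member call changed; the cause of the other changes was not tested.

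Calls over all genes moved more. On the deposited scale they were 826 against 2987 higher (day 5 minus day 1, del/del), 1221 against 3234 (fl/fl), 2000 against 3786 and 1364 against 4008 higher (day 8 minus day 1, del/del and fl/fl), and 1877 against 3344 and 6055 against 3775 lower. At day 8 between genotypes they were 3227 against 1118 higher and 68 against 991 lower, and 24 against 443 higher for fl/fl day 8 minus day 5. With voom the del/del day 8 minus day 5 count was 1513 against 1018. Leaving out libraries gave 12 to 2638 higher and 43 to 2017 lower at day 8 between genotypes, the lowest with line 3 left out of the del/del day 8 group. The same fits gave 225 to 1519 (del/del) and 35 to 1269 (fl/fl) higher for day 8 minus day 5, and 0 to 963 higher and 0 to 608 lower between genotypes at day 5, with 0 to 1401 higher for the change of the genotype difference between day 8 and day 1. With no filter the mean over days had 143 higher and 158 lower against 5 and 10, and with 1 library left out 0 to 1596 higher and 1 to 1455 lower. List counts between genotypes at day 8 moved with all 4 day 8 libraries. The shallow library limits day 8, and no difference was detectable in Slc22a2 and Plg at these read numbers.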
